A study of Mus musculus with 6 samples.

Results

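The genes described here carry the nitric oxide, natriuretic peptide and cyclic GMP signal of the vessel wall. They are 9 of the 55450 genes in a single-cell RNA sequencing matrix of the mouse aorta, chosen by symbol: Nos3, Gucy1a1, Gucy1b1, Prkg1, Pde5a, Pde3a, Npr1, Npr2 and Npr3. The series compared aortic tissue in 3 samples labelled Best3FL/FL with that in 3 samples labelled Best3SMKO, in which Best3, a bestrophin family chloride channel gene, is deleted in smooth muscle. The Cre driver, age and sex are not given in the labels. Tissue was dissociated and run on 10x Genomics droplets, where each unique molecular identifier (UMI) stands for 1 captured transcript. Barcodes of the combined matrix carry a library number from 1 to 6 that could be matched to no sample, so no value below compares the genotypes, and libraries are named by that number.

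Nitric oxide made by endothelial nitric oxide synthase diffuses into neighbouring smooth muscle and activates soluble guanylyl cyclase, which makes cyclic GMP. Natriuretic peptides raise cyclic GMP by another route, through receptors that are themselves guanylyl cyclases. Cyclic GMP then activates a protein kinase that relaxes smooth muscle, and phosphodiesterases end the signal by degrading the nucleotide.

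The matrix held 60871 barcodes and 399340994 UMIs, with 7475 to 16269 barcodes per library and a median of 4708 to 6289.5 UMIs per barcode. After filtering, 50641 cells formed 24 clusters, of which 18 were named by marker lists and fell into 10 classes. The remaining 6 clusters, with 4944 cells, stayed unnamed and are not used in the class values. Best3 itself had 26 UMIs in all, too few to check the deletion. Libraries 1, 3 and 4 held both Xist-only (17.8% to 31.2%) and Y-only barcodes (31.7% to 40.2%), that is cells of more than 1 mouse, and the number of mice per sample was not worked out here. In contrast, at most 0.129% of barcodes in libraries 2, 5 and 6 were Xist-only. A total of 831 barcodes shared their sequence with a barcode of another library. The classes used most are the 13107 smooth muscle-like, 424 pericyte-like, 8368 endothelial cell-like, 1535 lymphatic endothelial cell-like, 15624 fibroblast-like and 1648 Schwann cell-like cells. Levels are CPM, the UMIs of a gene per 1000000 UMIs of the class, pooled over libraries with an exact 95% Poisson interval that covers counting error only. Where 3 library values are given, they are the lowest, the median and the highest of the libraries holding at least 20 cells.

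None of the 9 genes belonged to 1 class by the rule of at least 4 times the CPM of every other class, which 10.0% of 13244 genes met. Their levels followed 3 patterns. Nos3 was an endothelial gene of both blood and lymphatic classes. The cyclase subunits, the kinase and Pde5a were highest in pericyte-like and smooth muscle-like cells. Pde3a and the receptors were spread over several classes.

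**Figure D1:**
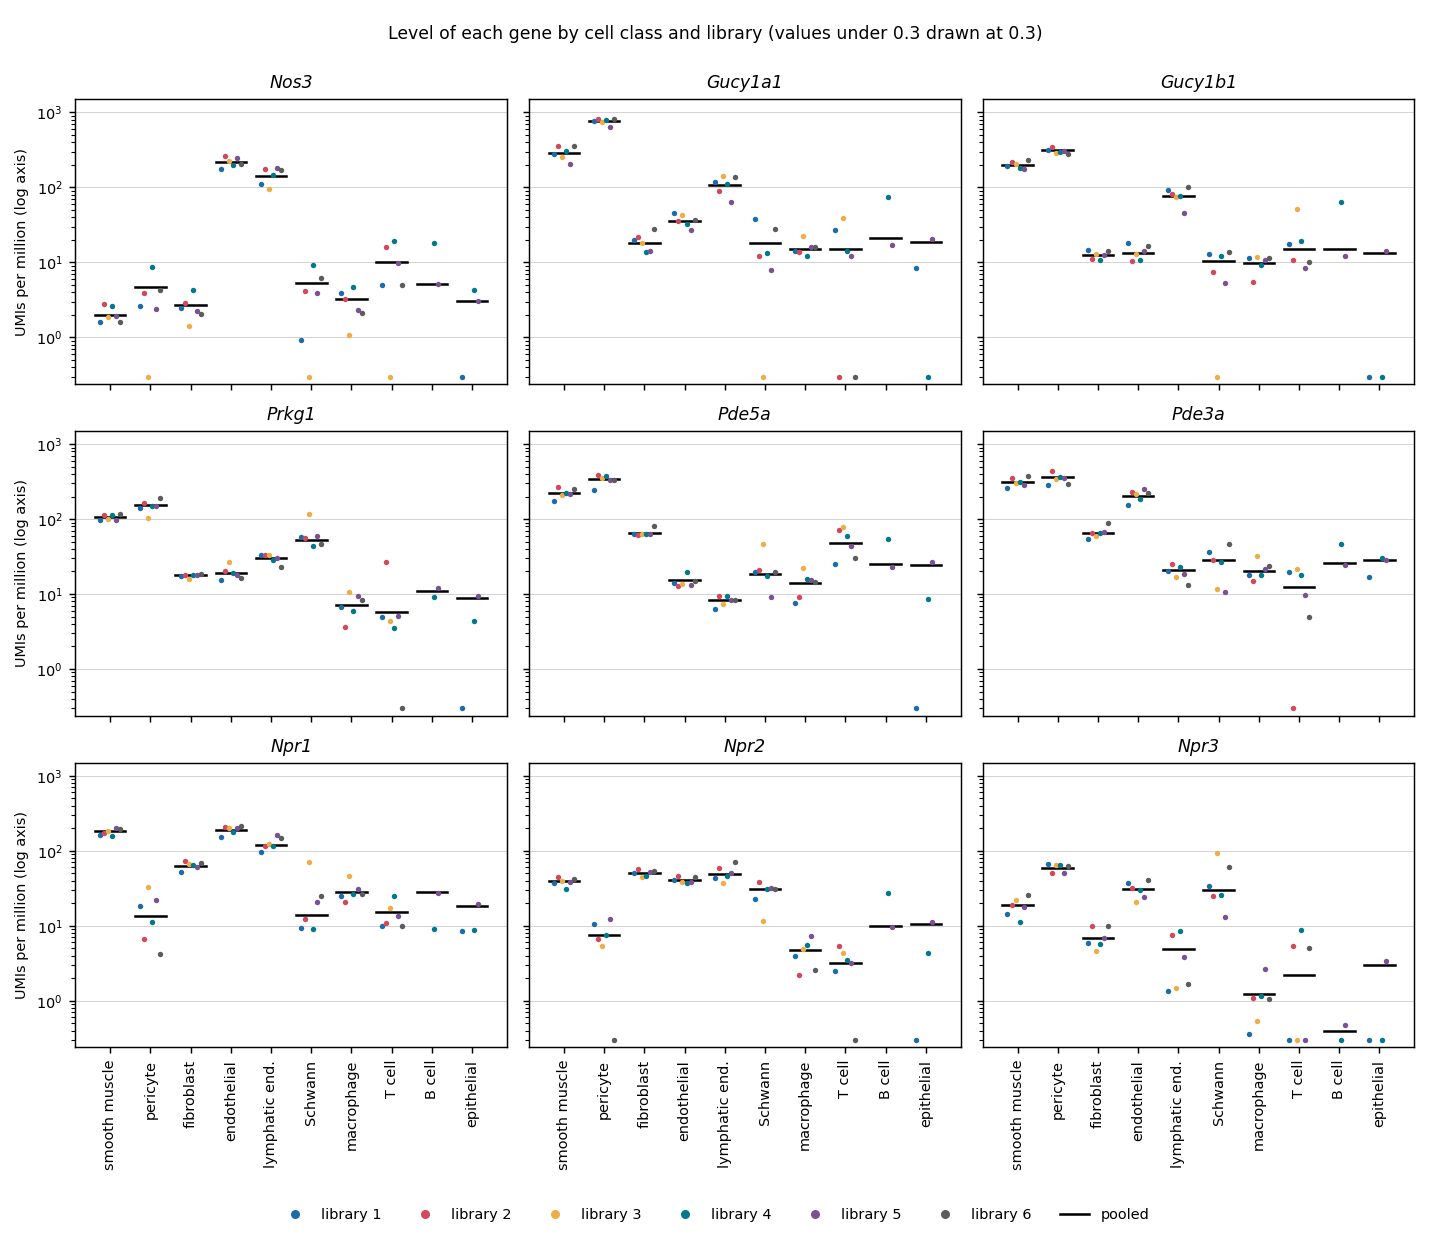
Level of each of the 9 genes in CPM (log axis) in the 10 cell classes, as 1 point per library where 20 or more cells were present and a black line for all libraries pooled. Nos3 stands at 218 in endothelial cell-like and 143 in lymphatic endothelial cell-like cells and at or under 10.2 elsewhere, while Npr1 reads 181 in smooth muscle-like and 13.3 in pericyte-like cells.

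Sequence upstream of the transcription start was available from RefSeq (GRCm38.p6) for 7 of the 9 genes, as 9 windows of 250 bases. The windows of the cyclase subunits are shown because these neighbouring genes followed each other across cell classes, and those of Npr1 and Npr3 because these receptors went opposite ways between smooth muscle-like and pericyte-like cells. All 4 genes lie on the minus strand. Each sequence is written 5′ to 3′ on that strand, ending 1 base before the RefSeq start. Of these genes, only Npr1 has a RefSeq start that matches the GENCODE bounds given below. The Gucy1a1 window lies partly inside the bounds of its gene, and a gap parts the Gucy1b1 and Npr3 windows from theirs. Capitals mark GGGCGG on either strand, the core of the GC box. The Gucy1a1 window is chr3:82145651-82145900, the Gucy1b1 window chr3:82074712-82074961, the Npr1 window chr3:90465867-90466116 and the Npr3 window chr15:11907372-11907621.
Gucy1a1: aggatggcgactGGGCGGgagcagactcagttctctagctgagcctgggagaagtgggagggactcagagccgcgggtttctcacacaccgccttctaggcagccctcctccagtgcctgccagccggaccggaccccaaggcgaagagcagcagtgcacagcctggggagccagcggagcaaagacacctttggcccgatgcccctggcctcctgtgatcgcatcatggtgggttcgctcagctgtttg
Gucy1b1: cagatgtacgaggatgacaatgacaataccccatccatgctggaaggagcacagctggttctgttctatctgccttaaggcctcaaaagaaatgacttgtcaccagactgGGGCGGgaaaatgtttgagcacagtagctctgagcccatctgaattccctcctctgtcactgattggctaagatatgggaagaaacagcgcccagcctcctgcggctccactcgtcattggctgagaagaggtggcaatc
Npr1: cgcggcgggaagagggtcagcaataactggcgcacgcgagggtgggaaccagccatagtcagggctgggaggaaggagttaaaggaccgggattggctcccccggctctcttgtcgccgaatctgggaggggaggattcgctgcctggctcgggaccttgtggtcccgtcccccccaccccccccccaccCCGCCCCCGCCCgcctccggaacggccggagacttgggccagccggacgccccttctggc
Npr3: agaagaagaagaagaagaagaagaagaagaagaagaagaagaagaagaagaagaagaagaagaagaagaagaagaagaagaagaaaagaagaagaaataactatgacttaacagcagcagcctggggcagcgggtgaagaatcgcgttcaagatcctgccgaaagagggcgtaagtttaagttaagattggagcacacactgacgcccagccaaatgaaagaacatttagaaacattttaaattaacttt
GGGCGG began 238 bases before the start in this window of Gucy1a1, which has another start with no match, 140 bases before it in Gucy1b1, and 60 and 54 bases before it in Npr1. Pde5a and both windows of Prkg1 held it too, and those of Npr2 and Npr3 did not. Among 32851 RefSeq windows of the same length, 32.7% held GGGCGG on either strand. The CArG box (1.47% of all windows), TATAAA (12.4%) and CATTCC (12.6%), searched on both strands, were in none of the 9 windows. GC content ran from 38.8% in the Npr3 window to 70.4% in that of Npr1.

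Nos3 (ENSMUSG00000028978; GRCm38, chromosome 5, 24364810 to 24384474, plus strand) encodes endothelial nitric oxide synthase. In endothelial cell-like cells its CPM was 218 (interval 214 to 223), with library values of 175, 216 and 263. In lymphatic endothelial cell-like cells it was 143 (136 to 149.9), with library values of 96.1, 157 and 179.9. The blood vessel class was higher in 6 of 6 libraries, although the ranges overlapped. Smooth muscle-like cells read 2.0 CPM, or 0.915% of the endothelial level, where the summed endothelial markers stood higher, at 1.51% of theirs. A Nos3 UMI was seen in 47.8% of endothelial cell-like cells (median depth 4318 UMIs) and in 2.07% of smooth muscle-like cells (median depth 10775 UMIs). With every cell thinned to 2000 UMIs the shares were 30.2% and 0.426%. Nos3 overlaps Gm15587 and Atg9b on the opposite strand. No source used here states if counting kept strand, so it is not known if UMIs of such neighbours were kept apart.

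Among endothelial clusters, Nos3 was highest in cluster 5, which led the large-artery and the arteriolar marker lists. Cluster 5 read 334 CPM, with library values of 286, 331 and 365, against 142 in the rest of the class. Cluster 6, which led the venous list, read 198 CPM, and cluster 4, which led the capillary list, 84.7. Its values of 62.7, 91.3 and 108 lay below those of every library in the other clusters. Clusters were made from the same cells, without the 9 genes and the wider pathway list among the variable genes, so these are descriptions.

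Soluble guanylyl cyclase is a dimer of an alpha and a beta subunit, encoded mainly by Gucy1a1 (ENSMUSG00000033910; chromosome 3, 82092427 to 82145789, minus strand) and Gucy1b1 (ENSMUSG00000028005; chromosome 3, 82032006 to 82074689, minus strand). The genes are neighbours on the same strand, with 17737 bases between them. In pericyte-like cells Gucy1a1 reached 767 CPM (735 to 800.5), with library values of 638, 773 and 824. Smooth muscle-like cells held 291 CPM (288 to 294), with library values of 203, 294 and 361. The ranges did not overlap, and the pericyte-like level was 2.64 times the smooth muscle-like one. For Gucy1b1 the difference was smaller, at 312 against 202 CPM, or 1.54 times, higher in 6 of 6 libraries and with separate ranges. Gucy1a1 accordingly made up 71.1% (69.4% to 72.7%, exact binomial) of the UMIs of both subunits in pericyte-like cells and 59.1% (58.7% to 59.4%) in smooth muscle-like cells. Every library showed the larger share in pericyte-like cells, at 67.8% to 74.4% against 53.3% to 63.1%. Pooled endothelial cell-like cells stood at 73.0% (71.0% to 74.8%), with 65.4% to 77.3% by library, but this share joined unlike clusters. With finer clusters (Leiden resolution 1), the one leading the venous list held 804 Gucy1a1 and 149 Gucy1b1 UMIs. The others held 235 and 149, 315 and 174, and 216 and 110. Endothelial Gucy1b1 was also near the level of smooth muscle markers, as given below. The remaining classes stood at 50% to 63.7%.

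The pericyte-like class was named from a list of 7 pericyte markers, of which 6 stood out in its cluster. Their sum was 3828 CPM (3144 to 4655 by library), against 3042 (1670 to 4776) in smooth muscle-like cells, so these ranges overlapped. Members of the list differed. Vtn read 278 CPM against 0.337 in the main smooth muscle cluster, and 2 of the 7 markers stayed under 10 CPM in smooth muscle-like cells. In contrast, Rgs5 of the same list was among the leading genes of a smooth muscle-like cluster of 2407 cells at Leiden resolution 1. The pericyte-like class also carried summed smooth muscle markers of 32558 CPM (22761 to 39370 by library). Smooth muscle-like cells held 47743, and all 7 smooth muscle markers were detected in the pericyte-like class. The part of these transcripts in the pericyte-like levels was not tested. Gucy1a2, encoding an alternative alpha subunit, met the rule of 4 times for pericyte-like cells, with 58.4 CPM against 7.51 in fibroblast-like cells.

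Lymphatic endothelial cell-like cells also carried both subunits. Gucy1a1 read 108 CPM, with library values of 64.2, 115 and 140.1, and Gucy1b1 76.6 CPM, with 46.2, 78.1 and 100.5. These equal 37.2% and 38% of the smooth muscle-like levels, where summed smooth muscle markers stood at 4.01%. In endothelial cell-like cells the same comparison gave 12.4% for Gucy1a1 and 6.64% for Gucy1b1 beside 5.12% for the markers. Gucy1b1 there, and both subunits in macrophage-like cells at 5.15% and 4.85% beside 4.93%, were therefore near the level of the markers. Cluster 6, the venous one, was the endothelial cluster of highest Gucy1a1, at 61.0 CPM against 25.3 in the rest, higher in 6 of 6 libraries. With finer clusters (Leiden resolution 1), the cluster leading the venous list read 61.2 CPM (57.0 to 65.6). The cluster leading the arteriolar list read 56.1 CPM (48.9 to 64.1), so the intervals overlapped. Over the processing settings, the log2 ratio of the venous cluster to the rest ran from 0.831 to 1.39, beside 1.27 in the main setting.

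Across 53 sums of class and library, the subunits had a Pearson correlation of 0.956 on the log2(CPM + 5) scale. These points share libraries, depth and cell classes, so the value is a description. Within smooth muscle-like cells thinned to 2000 UMIs, Gucy1b1 was seen in 35.2% (33.9% to 36.5%) of cells with Gucy1a1 and in 31.1% (30.1% to 32.1%) of cells without it. In pericyte-like cells these shares were 48.2% and 48.9%, with overlapping intervals. Cells of all libraries were pooled for these shares, and the intervals cover counting error only. In smooth muscle-like cells both genes were lowest in library 5 and highest in library 6. The part of such library differences in the gap was not tested.

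**Figure D2:**
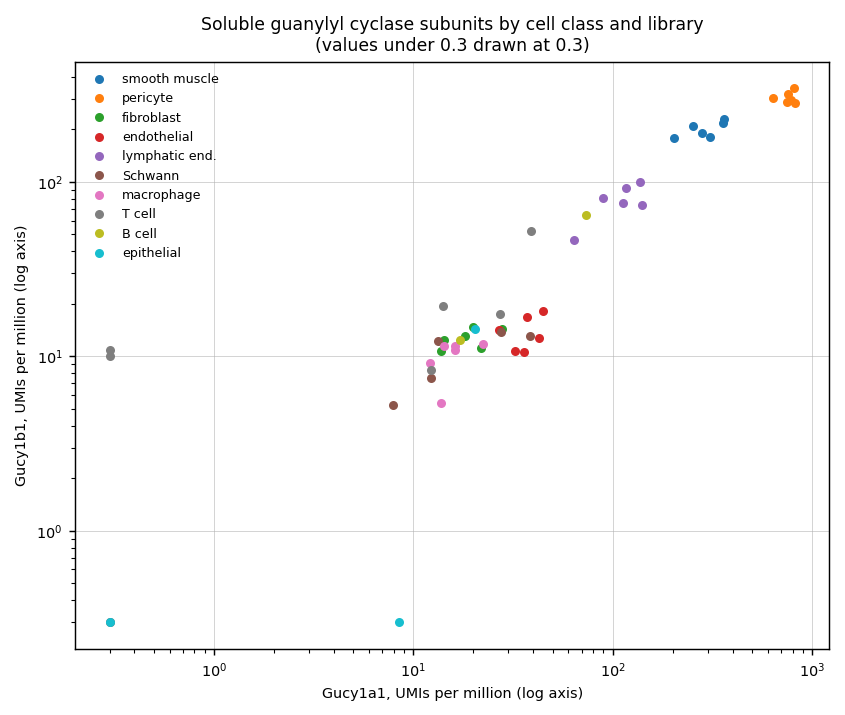
Gucy1b1 against Gucy1a1, both in CPM on log axes, with 1 point per cell class and library of at least 20 cells, coloured by class. Pericyte-like points lie at 638 to 824 for Gucy1a1, to the right of the smooth muscle-like points at 203 to 361. Lymphatic endothelial points, at 64.2 to 140.1 for Gucy1a1, lie to the right of the other endothelial points at 26.9 to 44.9.

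Prkg1 (ENSMUSG00000052920; chromosome 19, 30564489 to 31765033, minus strand) encodes cyclic GMP-dependent protein kinase 1, the main effector of cyclic GMP in smooth muscle. It read 153 CPM in pericyte-like cells, with library values of 104, 150.3 and 190.1, and 106 CPM in smooth muscle-like cells, with 95.9, 107 and 118. The ranges overlapped, and pericyte-like cells were higher in 6 of 6 libraries. Schwann cell-like cells came next at 52.9 CPM, with library values of 44.3, 57.0 and 117. That is 49.97% of the smooth muscle-like level, beside 6.01% for the summed smooth muscle markers. Lymphatic endothelial cell-like cells read 30.7 CPM and the remaining classes 5.75 to 18.9.

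The Schwann signal lay in 1 of the 2 Schwann clusters. Cluster 12 read 7.0 CPM for Prkg1, with library values of 2.90, 6.89 and 9.0. Cluster 15 read 94.7 CPM, with 74.2, 101 and 125. The Prkg1 ranges over the 5 libraries with enough cells did not overlap. The clearance receptor gene Npr3 went the other way, at 54.2 CPM in cluster 12 and 7.97 in cluster 15. Its library values were 23.2, 51.7 and 74.3 in the former and 4.80, 6.99 and 28.9 in the latter, with a slight overlap. These clusters were set side by side after their values had been seen.

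Pde5a (ENSMUSG00000053965; chromosome 3, 122728947 to 122859374, plus strand) encodes the cyclic GMP-specific phosphodiesterase that sildenafil inhibits. Pericyte-like cells read 347 CPM, with library values of 241, 346 and 383, and smooth muscle-like cells 223, with 177, 218 and 269. The ranges overlapped, although pericyte-like cells were higher in 6 of 6 libraries. Fibroblast-like cells held 64.9 CPM, with library values of 61.7, 63.2 and 81.0, or 29.1% of the smooth muscle-like level beside 3.66% for the smooth muscle markers. T cell-like cells followed at 47.6 CPM, with 24.9, 52.1 and 78.4. Endothelial cell-like cells held 15.3 CPM and lymphatic ones 8.24, which are 6.88% and 3.70% of the smooth muscle-like level and close to the marker values of 5.12% and 4.01%. Within smooth muscle, the small cluster 19 was highest at 426 CPM against 216 in the rest, a ratio of 1.97 that fell just short of the factor of 2.

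Pde3a (ENSMUSG00000041741; chromosome 6, 141249269 to 141507448, plus strand) encodes a phosphodiesterase that degrades cyclic AMP and is inhibited by cyclic GMP. It read 363 CPM in pericyte-like cells, with library values of 281, 349 and 435, and 315 CPM in smooth muscle-like cells, with 262, 308 and 372, and these ranges overlapped. Endothelial cell-like cells followed at 206 CPM, with 155, 219 and 252, below the whole smooth muscle-like range. Lymphatic endothelial cell-like cells held 20.7 CPM, with library values of 13.2, 19.6 and 25.0, far below the blood vessel class in every library. Fibroblast-like cells read 65.5 CPM and the remaining classes 12.5 to 28.9.

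Endothelial Pde3a lay mostly in 1 cluster. Cluster 5 read 460.5 CPM, with library values of 348, 472 and 541. The capillary cluster 4 read 20.3 CPM, with 17.4, 20.4 and 23.8, and the venous cluster 6 read 54.7, with 36.6, 53.1 and 71.3. The ranges of the 3 clusters were separate, and cluster 5 stood 12.2 times above the rest of its class. Pde3b, which encodes the related phosphodiesterase, showed the same order, at 104 CPM in cluster 5 and 1.93 and 5.39 in clusters 4 and 6. With finer clusters (Leiden resolution 1), a cluster of 2433 cells led the large-artery list and another of 1115 cells the arteriolar list. The latter also had summed capillary markers of 13372 CPM. Of the arteriolar list, Sema3g (807 against 124 CPM), Sox17 (494 against 167) and Hey1 (174 against 12.8) were higher in the latter. Gja4 (208 against 338), Gja5 (157 against 403) and Bmx (121 against 415) were lower there, so the name arteriolar rests on the sum of the list. Pde3a read 541 CPM in the large-artery cluster, with library values of 409 to 660, and 53.0 in the arteriolar one, with 41.0 to 75.3. Nos3 differed less, at 352 against 206 CPM.

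Npr1 (ENSMUSG00000027931; chromosome 3, 90450591 to 90465866, minus strand) encodes the receptor of atrial and brain natriuretic peptide, a membrane guanylyl cyclase. Endothelial cell-like cells read 188 CPM, with library values of 150.4, 201 and 211, and smooth muscle-like cells 181, with 156, 177 and 202. The ranges overlapped and the order differed between libraries. Lymphatic endothelial cell-like cells read 121 CPM and fibroblast-like cells 62.7. Pericyte-like cells held 13.3 CPM (9.39 to 18.4), with library values of 4.22, 14.8 and 32.7, so the smooth muscle-like level was 13.6 times higher and the ranges did not overlap. The remaining classes read 14.0 to 28.5 CPM.

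The smooth muscle cluster 10, the richest in Pln, was low for Npr1 as well. Pln encodes phospholamban, an inhibitor of the sarcoplasmic calcium pump and a target of the cyclic GMP kinase. Npr1 read 51.8 CPM there, with library values of 38.3, 60.1 and 67.3, against 193 in the rest of the class, with 171 to 215. It was lower in 6 of 6 libraries, by 3.73 times. Of the 6 of 9 genes that reached 50 CPM on either side, Npr1 was the 1 gene at least 2 times lower and 0 were at least 2 times higher, where 5.72% of 3533 genes were lower and 7.93% higher by this rule. Short of the factor of 2, Prkg1 read 190.3 against 98.1 CPM, Gucy1a1 471 against 275, Pde3a 420.1 against 305 and Pde5a 269.7 against 218, each higher in 6 of 6 libraries. Gucy1b1 went the other way, at 151 against 206 CPM in the pooled cells and lower in 5 of 6 libraries. The other receptors stayed under 50 CPM on both sides and were low in the cluster too, Npr2 at 16.1 against 41.2 CPM and Npr3 at 3.40 against 20.4, each lower in 6 of 6 libraries.

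Other pathway genes differed in this cluster too. Of 61 genes of the wider list, 17 reached 50 CPM, with 1 at least 2 times lower and 3 at least 2 times higher, and these 3 include Pln, by which the cluster was chosen. The 3 were Pln, Pde1a, encoding a calcium-dependent phosphodiesterase, at 122 against 31.0 CPM, and Slc7a2, encoding a transporter of the synthase substrate arginine, at 114 against 36.0. Csrp2, encoding a smooth muscle LIM protein, was lower at 550.0 against 2347. Prkg2, the gene of the second cyclic GMP-dependent kinase, was chosen after its values were seen and stayed just under 50 CPM, at 49.9 in cluster 10 and 3.32 in cluster 0, with library values of 28.8 to 76.7 and 1.38 to 4.60.

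In endothelium Npr1 was highest in the venous cluster 6, at 281 CPM with library values of 230, 287 and 317, and in 6 of 6 libraries above the rest of the class, at 148. At resolution 1 the arteriolar cluster was the lowest for Npr1, at 90.9 CPM. In fibroblasts, cluster 9 read 124 CPM against 53.8 in the rest. Its library values of 111 to 135 lay above those of the rest, at 43.4 to 64.1.

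Npr2 (ENSMUSG00000028469; chromosome 4, 43631935 to 43651244, plus strand) encodes the receptor of C-type natriuretic peptide, also a guanylyl cyclase. Of the 5 highest classes, fibroblast-like cells read 50.6 CPM, lymphatic endothelial cell-like 48.5, endothelial cell-like 40.8, smooth muscle-like 39.1 and Schwann cell-like 30.9. The others read 3.19 to 10.5. Neighbours in the order of these 5 classes overlapped in their library ranges. Classes further apart did not all overlap. Fibroblast-like values of 45.2 to 57.6 lay above the smooth muscle-like ones and above the Schwann cell-like ones, at 11.7 to 38.2. Pericyte-like cells were lower, at 7.57 CPM, or 21 UMIs in all, with library values of 0, 7.03 and 12.1 against 31.0 to 44.1 in smooth muscle-like cells.

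Npr3 (ENSMUSG00000022206; chromosome 15, 11839896 to 11907287, minus strand) encodes the clearance receptor, which removes natriuretic peptides and lacks the cyclase. It was highest in pericyte-like cells at 58.7 CPM (50.1 to 68.5), with library values of 50.2, 64.0 and 65.6. Endothelial cell-like cells followed at 31.3 CPM, with 20.7, 31.2 and 40.7, and smooth muscle-like cells read 18.96, with 11.05, 18.4 and 25.7. Neither range reached the pericyte-like values. Schwann cell-like cells stood between them at 30.03 CPM, with a wide range of 13.1 to 93.5 over libraries, and the remaining classes read 0.396 to 6.93. Of the UMIs of the 3 receptor genes, Npr3 held 73.8% (67.4% to 79.4%) in pericyte-like cells and 7.92% in smooth muscle-like cells, and Npr1 16.7% and 75.7%. This share compares classes, not the abundance of the receptors.

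Endothelial Npr3 lay in the capillary cluster 4, at 82.1 CPM with library values of 63.8, 81.4 and 103, against 9.65 in the rest of the class. The ranges were separate, and the ratio was 8.50. At resolution 1 the arteriolar cluster read 36.6 CPM, with library values of 11.2 to 81.9, the highest of which lay inside the capillary range. Cluster 4 was also where Nos2, the gene of inducible nitric oxide synthase, was found, at 43.5 CPM with library values of 32.2, 42.4 and 61.9, against 0.405 in cluster 5. Counted as pairs of gene and subtype list, 9 pairs differed by at least 2 times, with cluster 5 counted for both lists that it led. For clusters 5, 4 and 6 in turn, 3, 5 and 4 of the 9 genes reached 50 CPM on either side, and of these 2, 1 and 1 were higher and 0, 2 and 1 lower. All genes tested were higher in 8.21%, 10.0% and 5.20% and lower in 9.36%, 10.2% and 6.86%.

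**Figure D3:**
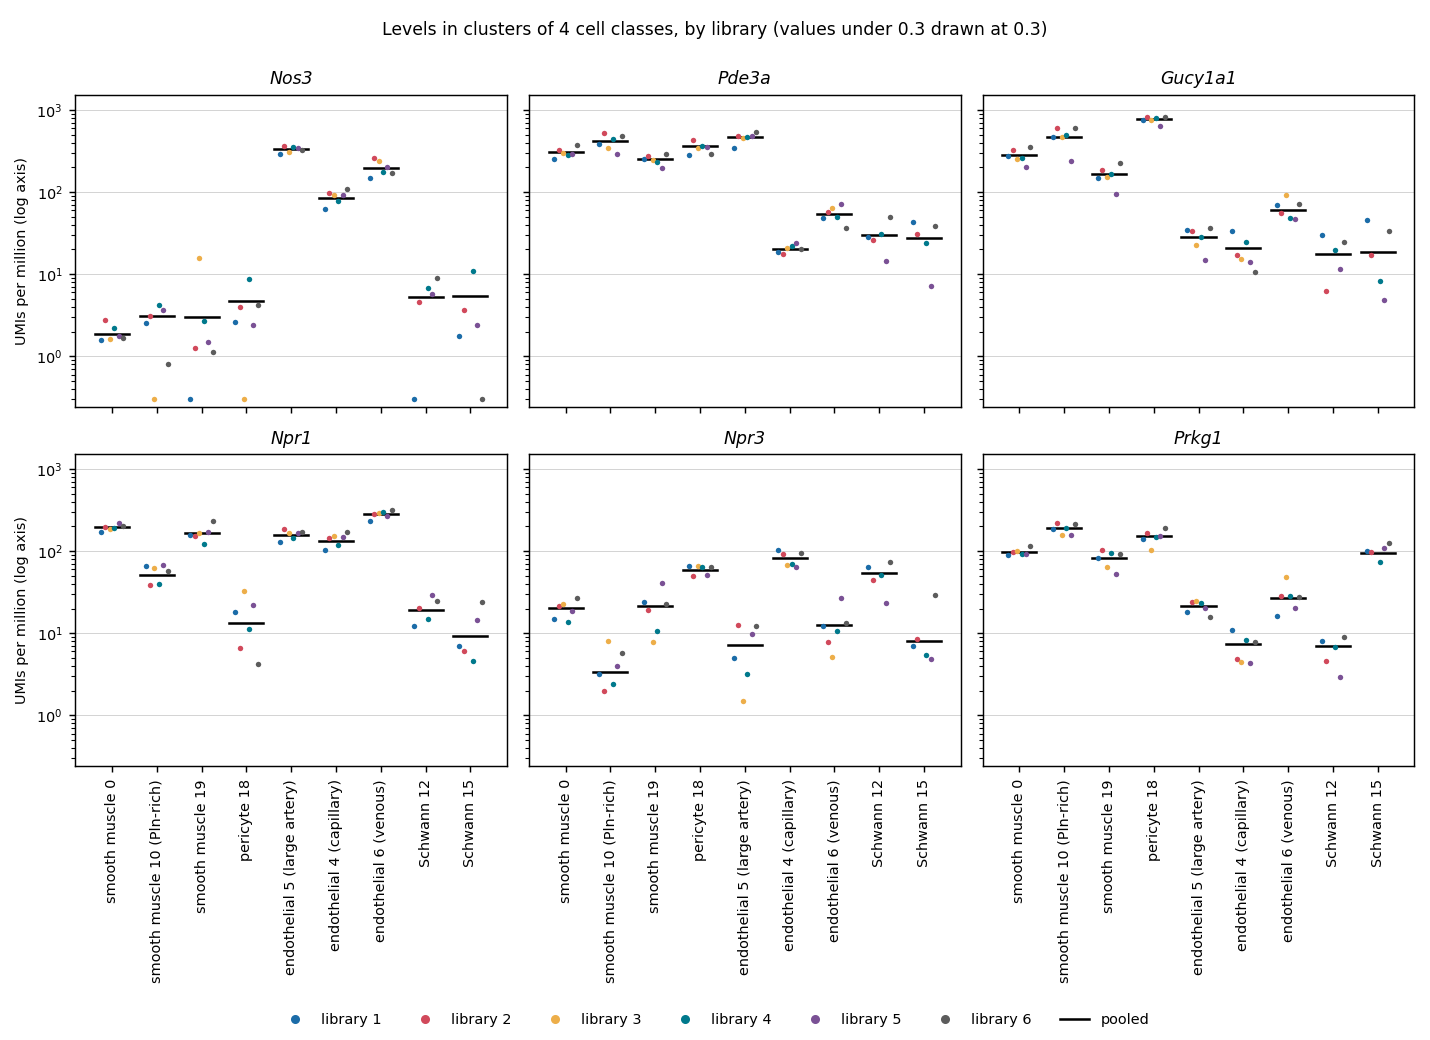
Levels of 6 genes in CPM (log axis) in the clusters of smooth muscle-like, pericyte-like, endothelial cell-like and Schwann cell-like cells, with a point for each library holding at least 20 cells and a black line for the pooled value. Pde3a stands at 460.5 in endothelial cluster 5 against 20.3 in cluster 4, Npr3 shows the reverse at 7.29 and 82.1, and Npr1 reads 194 in smooth muscle cluster 0 and 51.8 in the Pln-rich cluster 10.

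The peptide ligands were near the limit of detection. Nppc, which encodes C-type natriuretic peptide, reached at most 3.17 CPM in any class, Nppa at most 0.448, and Nppb had no UMI in any class. Neuronal nitric oxide synthase, Nos1, reached 2.88 CPM. In the wider list of synthesis, cyclase, peptide, phosphodiesterase and target genes, 41 of 61 reached 10 CPM in a class and 6 belonged to 1 class by the rule of 4 times, beside 10.0% of all genes. Besides Gucy1a2 these were Nos2 in endothelial cell-like cells at 13.5 CPM, the calcium-activated potassium channel subunit gene Kcnmb1 at 199 and Csrp2 at 2196 in smooth muscle-like cells, and Arg1 at 65.8 and Rgs2 at 1197 in T cell-like cells. The T cell-like class carried summed T cell markers of 2866 CPM, and also mast cell markers of 767 (0 to 2690 by library), monocyte markers of 766 and NK cell markers of 535, whose part in its levels was not tested. Arg1 encodes arginase 1, which competes with the synthases for arginine, and Rgs2 a regulator of G protein signalling that the cyclic GMP kinase phosphorylates.

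Among unplaced genes of the list, Cav1, encoding the caveolin that binds endothelial nitric oxide synthase, was highest in endothelial cell-like cells at 1254 CPM and Cyb5r3 in lymphatic endothelial cell-like cells at 548. Furin, encoding a protease that processes natriuretic peptides, was highest in T cell-like cells at 321 CPM and Pcsk6 in fibroblast-like cells at 149.6. Pde3b reached 107 CPM in T cell-like and Pde1a 99.5 in pericyte-like cells. Ppp1r12a, encoding the targeting subunit of myosin phosphatase, reached 1196 CPM and the calcium pump gene Atp2a2 611 CPM in smooth muscle-like cells.

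Genes with the pattern most like each of the 9 were ranked by Pearson correlation over the same 53 points among 10858 genes, again as a description. For Nos3 they were Podxl (0.978), Rasip1 and Nova2, for Gucy1a1 Mustn1 (0.923), Pawr and Mylk, and for Gucy1b1 Pcp4l1 (0.907), Pawr and Nexn. For Prkg1 they were Postn (0.920), Nkd1 and Cpe, and for Pde5a Heyl (0.920), 1500009L16Rik and Pi15. Pde3a was closest to Gm10400 (0.917) and Gm43958, both of which overlap it on the same strand, then Pdgfd. For Npr1 they were Gja1 (0.833), Synpo and Tmtc1, for Npr2 Ahnak2 (0.873), Fbln5 and Creb3l2, and for Npr3 Sparcl1 (0.844), Inka2 and Pcdh1.

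In the class of its highest level with at least 50 UMIs in each library, 0 of the 9 genes differed by 2 times between its highest and lowest library, beside 7.53% of 12119 genes. The widest was Npr3 in endothelial cell-like cells, at 1.965 times, and the narrowest Gucy1b1 in pericyte-like cells, at 1.21 times. In smooth muscle-like cells Gucy1a1 was lowest in library 5, at 203 CPM, with 252 in the next library and 361 in library 6. Library 5 was also the lowest for Gucy1a1 in the pericyte-like (638 CPM), endothelial cell-like (26.9 CPM) and lymphatic endothelial cell-like (64.2 CPM) classes and in each of the 3 smooth muscle clusters. In fibroblast-like cells the lowest was library 4, at 13.8 CPM, with 14.3 in library 5. Of 10876 genes with enough UMIs in smooth muscle-like cells, 11.2% were lowest in library 5, and in the pericyte-like, endothelial and lymphatic classes 14.2%, 13.1% and 14.3% were. Library 5 also had the lowest median depth, and its part in this order was not tested. Npr3 in smooth muscle-like cells ranged 2.33 times, from 11.05 CPM in library 4 to 25.7 in library 6, more widely than 96.2% of genes there, of which 6.81% reached 2 times. Outside the class of highest level, 5 more ranges passed 2 times, namely Gucy1a1 (2.01) and Npr3 (2.17) in fibroblast-like, Gucy1a1 (2.18) and Gucy1b1 (2.17) in lymphatic endothelial cell-like and Npr1 (2.20) in macrophage-like cells. In these classes in turn, 8, 4 and 1 of the 9 genes had enough UMIs. Of all genes with enough UMIs there, 4.93% of 10367, 8.72% of 2316 and 7.19% of 4773 reached 2 times.

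**Figure D4:**
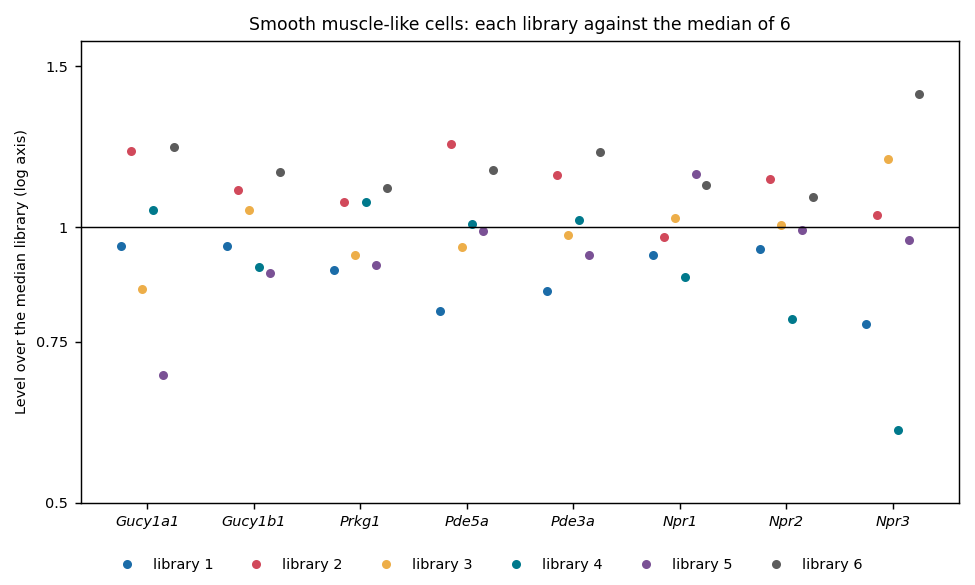
Level of 8 genes in smooth muscle-like cells of each library, divided by the median of the 6 libraries (log axis, with a line at 1). Points lie within a factor of 1.5 of the median except for Npr3 in library 4, and the lowest Gucy1a1 value is that of library 5, where the level is 203 CPM.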

How the data were processed

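Single-cell RNA of 6 aortic samples (3 Best3FL/FL, 3 Best3SMKO) was deposited as 1 matrix of whole-number UMI counts, per the file headers, which name Cell Ranger 6.1.2. Per the submitters' processing notes, the build is GRCm38 and the tools include bcl2fastq 5.01, Seurat 3.1.1 and Cell Ranger 3.1.0. No source used here states if depth was equalised between libraries. All 55450 identifiers were found in GENCODE M21 (GRCm38), the source of coordinates. Sequences are from RefSeq (GRCm38.p6).

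Cells needed 500 or more detected genes and a mitochondrial share of 20% or less, and Scrublet doublet calls, 3.02% to 11.7% of a library, were dropped (scanpy 1.11.5). Cells were clustered on 2000 variable genes, scaled, with 30 principal components, 20 neighbours and Leiden resolution 0.5 (leidenalg 0.10.2), without integration. The 9 genes, the wider list and Pln were left out of the variable genes. The variable-gene method and scaling were chosen after other settings had merged pericytes with smooth muscle. Clusters were named from 25 marker lists by their average log2 ratio over the median of clusters, requiring margins of 0.5 to the second list, or 0.3 between the smooth muscle and pericyte lists, set after clusters were seen. Other tools were scikit-learn 1.9.0, pandas 2.3.3, Python 3.11.15, scipy 1.17.1 and numpy 2.4.6.

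Raw UMIs were summed per class or cluster and library, and divided by all UMIs of that sum, per 1000000. Classes of at least 200 cells were compared. Cluster ratios used genes reaching 50 CPM on either side whose direction was the same in each library that had 20 or more cells on both sides. Shares of cells were also taken after thinning each cell to 2000 UMIs, leaving out shallower cells. These are rules of size. The planned genotype comparison on summed counts was not made, since no cell could be tied to a sample, and no p-value is given. For counting error only, 95% exact intervals were taken from the Poisson (levels) or binomial (shares, Clopper-Pearson) distribution. The members and lists were chosen with earlier results of these data known. Named genes are the 9 members, wider-list genes placed in 1 class or apart in the Pln-rich cluster, otherwise the 2 of highest CPM per sublist, and 3 like genes per member. Rules were tested on simulated data.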

Additional observations from a re-analysis of the deposited data

Results flagged for a closer look

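Of 34 sets of 6 library values tested, 3 held a library whose gap to the nearest other library, divided by the whole range, passed 0.625. Chance flags about 1 in 20 such sets, and libraries are not a labelled group. All 3 concern Pde5a and a different library each. In endothelial cell-like cells library 4 was the highest at 19.8 CPM, with 15.1 in the next library. In fibroblast-like cells library 6 was the highest at 81.0 CPM, with 64.2 in the next. In pericyte-like cells library 1 was the lowest at 241 CPM, with 334 in the next.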

How the results depend on the processing

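No paired analysis was possible because no cell could be tied to a sample, so the planned test with a replicate block has no value. Leaving out each library in turn kept the counts at 0 to 0 of the 9 genes placed in 1 class, 6 to 6 of the wider list, 1 to 1 in the Pln-rich cluster, 9 to 9 endothelial pairs and 0 to 0 with a wide library range. At resolution 0.3, 2 genes (Gucy1a1 and Npr1) were 2 times apart in the Pln-rich cluster, and with a factor of 1.5 there were 3. A placement factor of 2 placed 1 gene, Gucy1a1. A library range of 2 times was met by 2 genes (Gucy1a1 and Gucy1b1) with doublets kept, by 1 (Npr3) with at least 1000 detected genes, and a range of 1.5 times by 4. With doublets kept, 3 of the wider list were placed. The share of all genes was not counted under the settings named here, so these counts have no rate beside them. Of 19 log2 ratios, 16 kept their sign in every setting. At resolution 1 the arteriolar cluster ratio was -0.091 for Nos3 and -2.06 for Pde3a, where the main values were 1.23 and 3.61. The latter came from a cluster that also led the large-artery list. With doublets kept, the log2 ratio of Npr1 in endothelial cell-like over smooth muscle-like cells was -0.003386, against 0.05. Of all 241 pairs of ratio and setting, 40 moved beyond the counting interval with their sign kept. At resolution 0.3 there was no pericyte-like class, so its ratios have no value there. Depth limits what can be said of the 37 Npr1 and 21 Npr2 UMIs of pericyte-like cells, and library 3 held 22 such cells.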
